A study of Mus musculus with 33 samples.

Results

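Peg3, Peg10, Mest, Snrpn, Ndn, Plagl1, Nnat, Impact, Sgce and Rasgrf1 are imprinted mouse genes that are transcribed from the paternal allele. They were read here in 33 single mouse blastocysts, each hybridised to 1 array, to see whether embryos cloned from somatic nuclei carried them at the level of fertilised embryos. The 10 genes were taken by name, through current symbols or older synonyms, and had 18 of the 41174 probes and 10 of the 27670 gene names on the array. Peg3 had 3 probes, Rasgrf1 had 4, Snrpn, Plagl1 and Sgce had 2 each, and the other members had 1 each. All embryos were (C57BL/6NxDBA/2)F1 mice cultured for 96 h. The male clones came from Purkinje neurons (n = 4), hippocampal CA1 pyramidal neurons (n = 4) or neonatal Sertoli cells (n = 4), and male blastocysts from in vitro fertilisation (IVF, n = 7) were their controls. The female clones came from Purkinje neurons (n = 4), CA1 neurons (n = 4) or cumulus cells (n = 3), with 3 female IVF blastocysts. Every clone group had been given 50 nM trichostatin A, which blocks histone deacetylases, for 1 h of activation, 5 h together with cytochalasin B and 2 h afterwards. The IVF embryos had not, so nuclear transfer and the drug cannot be told apart in any comparison of clones with IVF embryos. The labels give no number of donor animals or sessions. The p-values below therefore reflect only how far these embryos lay from each other, which may be technical.

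An imprinted gene keeps, at a nearby control region, DNA methylation that was laid down in the egg or the sperm and that marks its parental copies through the reprogramming of the early embryo. In most of the genes studied here the egg's copy is methylated and silent and the sperm's copy is read, while at Rasgrf1 it is methylation of the paternal copy that goes with its expression. Somatic donor nuclei already carry these marks, so a clone depends on their upkeep and not on their being set anew. The zinc finger protein ZFP57 takes part in that upkeep: it binds the methylated hexamer TGCCGC and recruits TRIM28.

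The promoter windows of the members are shown here because they hold that hexamer at a subset of the genes. RefSeq promoter windows on GRCm38.p6, each of 250 bases before and 50 bases after a transcription start, were searched for 7 members (12 windows). No window of Peg10, Sgce or Impact was searched, so the counts below leave out Impact, the member called most often. Both strands were searched for TGCCGC, whose reverse complement is GCGGCA. It was found at 4 of the 7 members, beside 13.1% of all genes with a window. By window it was found in 5 of the 12, beside 11.6% of all 32851 windows. Those 5 include a pair of Mest windows that overlap almost wholly. Capitals mark the hexamer in the windows of the counted members that hold it, for Mest in 1 of a pair of overlapping windows.
Nnat, chr2:157559828-157560127, plus strand: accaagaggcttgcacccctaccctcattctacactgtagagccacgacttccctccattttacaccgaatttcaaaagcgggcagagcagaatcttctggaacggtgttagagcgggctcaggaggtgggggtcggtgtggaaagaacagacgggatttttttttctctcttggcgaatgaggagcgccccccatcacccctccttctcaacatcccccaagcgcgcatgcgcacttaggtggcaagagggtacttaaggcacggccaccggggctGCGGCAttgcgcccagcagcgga
Mest, chr6:30737800-30738099, plus strand: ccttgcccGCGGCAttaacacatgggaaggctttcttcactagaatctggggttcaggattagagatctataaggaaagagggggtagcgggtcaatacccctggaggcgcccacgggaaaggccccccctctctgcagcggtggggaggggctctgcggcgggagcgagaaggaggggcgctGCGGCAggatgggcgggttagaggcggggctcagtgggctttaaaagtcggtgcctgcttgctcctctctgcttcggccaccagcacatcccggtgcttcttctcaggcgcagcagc
Snrpn, chr7:60005150-60005449, minus strand: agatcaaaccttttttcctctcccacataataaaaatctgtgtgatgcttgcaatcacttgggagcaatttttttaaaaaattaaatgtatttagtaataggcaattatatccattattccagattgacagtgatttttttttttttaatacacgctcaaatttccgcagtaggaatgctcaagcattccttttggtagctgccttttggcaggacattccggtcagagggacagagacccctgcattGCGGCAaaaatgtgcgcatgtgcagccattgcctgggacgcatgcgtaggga
Plagl1, chr10:13090582-13090881, plus strand: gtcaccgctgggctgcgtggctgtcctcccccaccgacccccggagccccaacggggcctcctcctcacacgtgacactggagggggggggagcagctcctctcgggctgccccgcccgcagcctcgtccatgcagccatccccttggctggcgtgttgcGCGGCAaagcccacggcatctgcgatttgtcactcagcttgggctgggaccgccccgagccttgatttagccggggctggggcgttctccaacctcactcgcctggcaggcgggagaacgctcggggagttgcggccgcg
The Plagl1 window holds 26 CpG dinucleotides, those of Nnat and Mest 17 each and that of Snrpn 7, and the median over all windows is 7. Of all windows 37.9% hold at least 13. The hexamer itself holds a CpG, and its share among windows of like CpG content was not worked out, so the shares over all genes and windows are not a like background. The windows of Peg3, Ndn and Rasgrf1 hold no match, and neither do the other 3 windows of Snrpn or the far upstream window of Mest. A match is a match of letters only, and nothing measured here bears on binding.

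Values are log2 of the processed signal over the 75th percentile of the array, so that 0 is the signal at that percentile. A single floor of 9.254% of the percentile (-3.43) was set under all arrays, and values on it have no order. On each array 45.3% to 62.6% of probes stood well above background, and embryos of 1 group correlated at 0.929 to 0.983 across genes. The arrays of IVF embryos and cumulus clones (13) had been made for earlier work of the laboratory, on an older scanner, and had 15.7% to 23.3% of their spots at or below 0, against 0% on the other 20 arrays. Set and embryo type can therefore not be told apart for the Purkinje, CA1 and Sertoli clones against IVF, and each clone group also lay on a slide of its own. The Purkinje arrays were dim, with a 75th percentile of 229.7 to 838, against 904.3 to 1466 on the other arrays. Ddx3y and Eif2s3y, genes of the Y chromosome, were on the floor in every female embryo and above it in every male embryo. Xist, the RNA that silences an X chromosome, was on the floor in the 7 male IVF embryos and above it in all male clones.

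Of the 10 members, 9 could be tested and Peg10 was too dim. Mest, Snrpn and Impact were above the floor in all 33 embryos, Sgce in 31 and Plagl1 in 27. Nnat was above it in 14, Rasgrf1 in 10, Peg3 in 9, Ndn in 5 and Peg10 in 2. Between the 9 tested members and 13 comparisons, 7 of 117 tests passed an adjusted p under 0.05 (limma with Benjamini-Hochberg adjustment over 15808 genes), and 5 of them concerned Impact. In male Purkinje clones against male IVF embryos Impact was lower and Rasgrf1 higher, 2 of 9 members, where 28.6% of all genes were called. In male CA1 clones 1 member, Impact, was lower, against 30.9% of all genes. In Sertoli clones 1 member, Nnat, was higher, against 25.7%. In female Purkinje clones 1 member, Impact, was lower, against 19.7%. No member was called in female CA1 clones, where 13.3% of all genes were, or in cumulus clones, where 5.29% were. At an unadjusted p under 0.05 the count was 1 in each, against 27.2% and 21% of all genes. At that threshold it was 4 in male Purkinje, 4 in male CA1, 1 in Sertoli and 2 in female Purkinje clones. The shares of all genes were 39.1%, 40.7%, 37% and 32.4%. Counts of 1 or 2 in 9 are at or below these backgrounds, and 4 in 9 is slightly above its own. The comparisons of a sex share their IVF embryos. The median difference of the 9 members was 0.04 in male Purkinje, 0.00 in male CA1 and 0.12 in Sertoli clones, beside 0.07, 0.01 and 0.00 over all genes. In female Purkinje, female CA1 and cumulus clones it was -0.68, -0.67 and -0.36, beside 0.08, 0.07 and -0.02 over all genes.

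**Figure D1:**
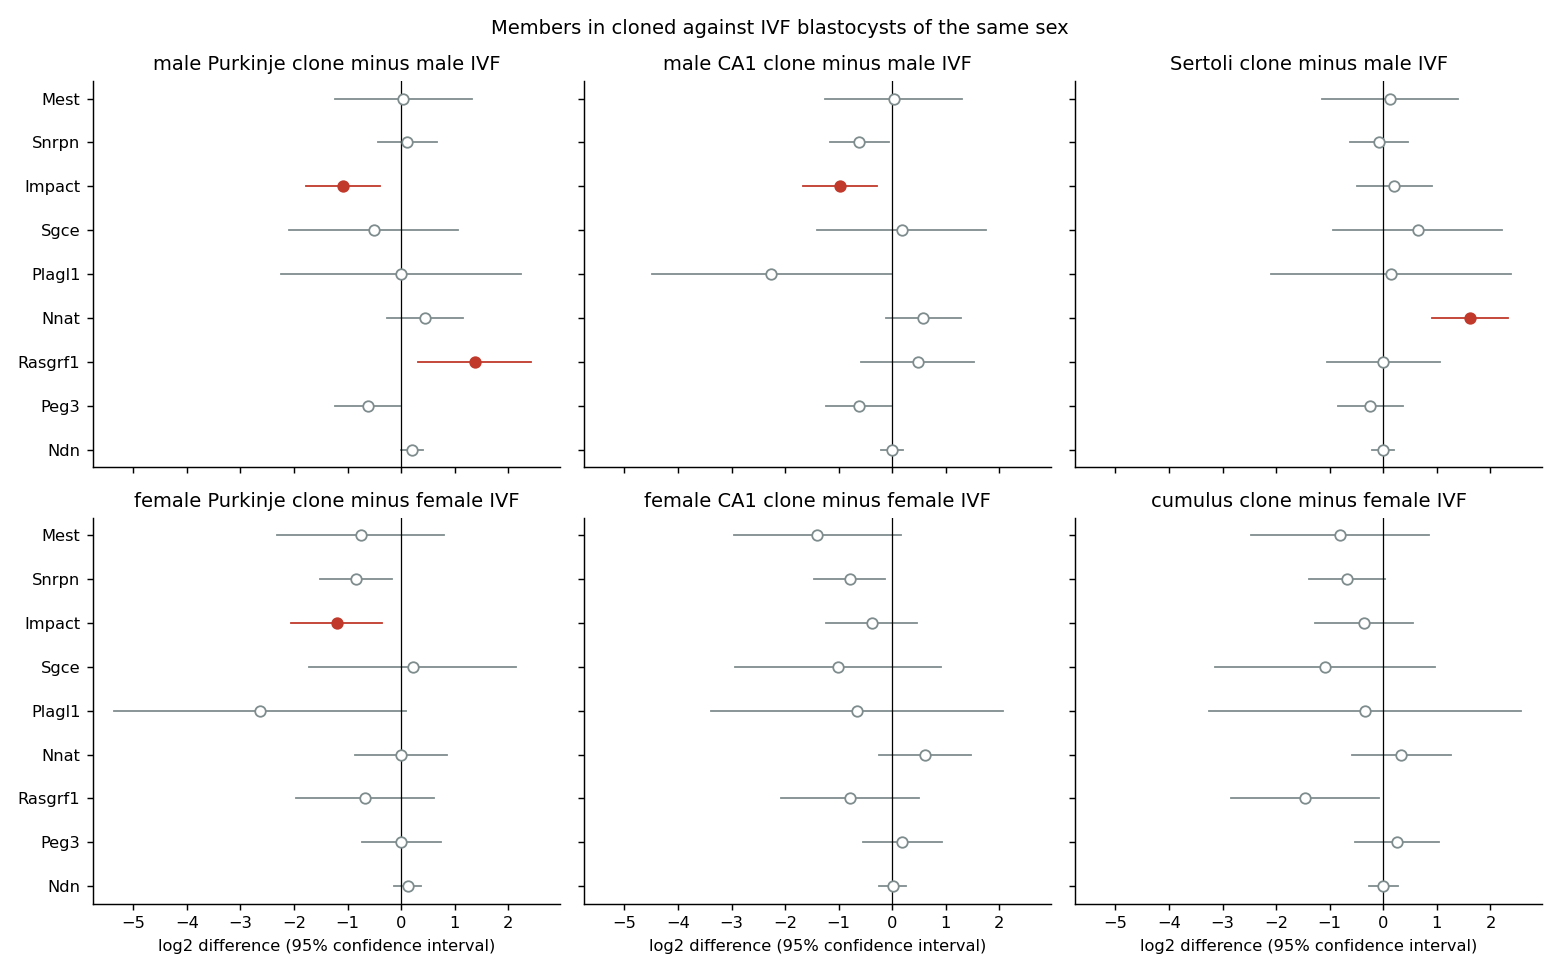
Difference of each tested member between clones and IVF embryos of the same sex, on the log2 scale, with the 95% confidence interval of the limma fit (points, mean differences; filled red, adjusted p under 0.05). Of the 54 intervals shown, 5 are called: Impact in 3 panels, Rasgrf1 in male Purkinje clones and Nnat in Sertoli clones.

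Impact encodes a regulator of translation that binds GCN1 and restrains the kinase GCN2. It was the member that differed most often, and it was about 2-fold lower in clones of 3 of the 4 neuronal groups. Male IVF embryos had a lowest value of 0.45, a median of 1.02 and a highest of 1.77. The male Purkinje clones read 0.34, 1.00, -0.52 and -0.62, with 3 of 4 below every male IVF embryo. Their mean was lower, with a log2 difference of -1.08 (SE 0.341, 2.12-fold, adjusted p = 0.0179). The male CA1 clones read 0.77, 0.34, -0.14 and -0.32, again with 3 of 4 below all IVF embryos. They were 1.97-fold lower than IVF (difference -0.98, SE 0.341, adjusted p = 0.0303).

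Female IVF embryos read 0.82, 1.88 and 1.23 for Impact, and the female Purkinje clones 0.90, -0.30, 0.12 and -0.28, so that 3 of 4 lay below the controls. The difference was -1.20 (SE 0.416, 2.3-fold, adjusted p = 0.0412). Female CA1 clones were tightly grouped at 0.94, 0.81, 1.03 and 0.93, and cumulus clones at 0.96, 0.95 and 0.93. Neither group passed against female IVF, with differences of -0.38 (95% interval -1.23 to 0.47, adjusted p = 0.626) and -0.36 (-1.27 to 0.55, adjusted p = 0.729). Every female Purkinje clone was below every cumulus clone (difference -0.84, adjusted p = 0.168), an order that 7.53% of all genes had.

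The Sertoli clones stood at 2.08, 0.68, 0.54 and 2.05 for Impact and did not differ from male IVF (0.20, 95% interval -0.50 to 0.90, adjusted p = 0.727). Against them the male Purkinje clones were lower (difference -1.29, SE 0.385, adjusted p = 0.0496), and so were the male CA1 clones (-1.18, SE 0.385, adjusted p = 0.044). In both cases 1 of 9 members was called, where 4.79% and 11.8% of all genes were. At an unadjusted p under 0.05 the counts were 3 and 2, beside 18.1% and 26.6% of all genes. These clones were all arrays of the present set, on different slides. Purkinje and CA1 clones did not pass against each other in males (-0.11, adjusted p = 0.92) or females (-0.82, adjusted p = 0.181), with 0 of 9 members called beside 18.5% and 11% of all genes and 1 member each at an unadjusted p under 0.05 beside 31.8% and 25% of all genes.

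The 5 dimmest Purkinje arrays held the 5 lowest Purkinje values of Impact. The male Purkinje arrays had 75th percentiles of 659.1, 602.9, 367.7 and 229.7 in the order of the values above, and the female ones 838, 353.8, 469.6 and 430. Without the 5 arrays under 500, 2 male Purkinje clones differed from IVF by -0.47 (adjusted p = 0.517) and from Sertoli clones by -0.67 (adjusted p = 0.595). The 1 female Purkinje clone left differed from IVF by -0.41, a value that is no test. The male CA1 arrays were not dim, at 930 to 1236. Single embryos also carried these calls. For male Purkinje clones against IVF the call was lost without clone 3 (-0.90, adjusted p = 0.088) or clone 4 (-0.86, adjusted p = 0.0978). For male CA1 clones it was lost without clone 3 (-0.87, 0.0895) or 4 (-0.81, 0.118) or without IVF embryo 2 (-0.87, 0.061) or 3 (-0.88, 0.0608). For female Purkinje clones it was lost without clone 2 (-1.06, 0.112), 3 (-1.20, 0.0712) or 4 (-1.07, 0.107) or IVF embryo 2 (-0.92, 0.197) or 3 (-1.24, 0.0859). Against Sertoli clones the Purkinje difference was lost without Purkinje clone 3 (-1.10, 0.173) or 4 (-1.07, 0.197) or Sertoli clone 1 (-1.04, 0.167) or 4 (-1.05, 0.158). The CA1 difference was lost without CA1 clone 2 (-1.24, 0.0558), 3 (-1.08, 0.11) or 4 (-1.02, 0.159) or Sertoli clone 1 (-0.93, 0.165) or 4 (-0.94, 0.133), the last number in each bracket being the adjusted p.

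Nnat encodes neuronatin, a small membrane protein of neurons and endocrine cells, and the gene lies inside an intron of Blcap. Its probe rose above the floor in Sertoli clones and in none of the IVF embryos of either sex. All 7 male IVF embryos were on the floor, at 0.581% to 4.91% of the 75th percentile, and the probe was well above background in 4 of them. The Sertoli clones read -3.04, -1.67, -2.30 and -0.25, which is 12.2% to 84.2% of the percentile, with no overlap. The increase was at least 3.08-fold (log2 difference 1.62, SE 0.344, adjusted p = 0.000986, higher in 4 of 4 clones), and 8.81% of all genes had every Sertoli clone above every IVF embryo. It was called in all 11 refits that left out 1 embryo, with adjusted p from 0.000137 to 0.0101. The size depends on the floor: the difference was 3.76 with a floor at a signal of 1 and 0.77 with a floor of 2 times the height.

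Other clones also had Nnat above the floor, without passing the test. Male CA1 clones read -3.43, -2.40, -2.38 and -3.20 and male Purkinje clones -3.43, -3.43, -2.17 and -2.93. These were at least 1.50-fold (adjusted p = 0.21) and at least 1.36-fold (adjusted p = 0.362) above male IVF. With the floor lowered to a signal of 1, both passed (2.49, adjusted p = 0.00226, and 2.27, adjusted p = 0.00549). Their differences from Sertoli clones were -1.04 (adjusted p = 0.0794) and -1.18 (adjusted p = 0.0765). Without Sertoli clone 1 both of these passed (-1.45, adjusted p = 0.019, and -1.59, adjusted p = 0.0145), and without male Purkinje clone 3 the second did (-1.45, adjusted p = 0.0491). Among females the 3 cumulus clones (-2.75, -3.19 and -3.34) were above the 3 IVF embryos, all on the floor (adjusted p = 0.758), and 9.7% of all genes had that order. CA1 clones read -1.98, -2.46, -3.43 and -3.43, and the 4 female Purkinje clones were on the floor. Blcap, its host gene, differed from IVF by 0.40 in Sertoli clones (adjusted p = 0.171) and was higher in male Purkinje clones (0.63, adjusted p = 0.0262).

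Rasgrf1 encodes a guanine nucleotide exchange factor for Ras, best known from neurons. Its brighter probe was on the floor in all 7 male IVF and all 4 Sertoli embryos. Male Purkinje clones 1 and 4 read -0.07 and -1.30 while clones 2 and 3 were on the floor. The group was called higher, by at least 2.59-fold (1.37, SE 0.515, adjusted p = 0.0455), on these 2 embryos. It held in 4 of 13 other ways of processing (0.85 to 4.37, adjusted p from 0.00459 to 0.289) and in 2 of 11 refits without 1 embryo: it was lost without clone 1 (0.71, adjusted p = 0.304), without clone 4 (1.12, adjusted p = 0.168) and without each of the 7 IVF embryos in turn (1.37 each, adjusted p from 0.054 to 0.0625).

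The further Rasgrf1 probe showed another order. It was above the floor in all 4 male CA1 clones, at -1.33, -1.18, -1.24 and -1.80, where the brighter probe read -2.74, -3.43, -3.43 and -2.24. All male IVF and Sertoli embryos were on the floor by it, and 1 male Purkinje clone was above (-2.15). Fitted probe by probe, with adjustment over 22812 probes, of which 28.2%, 9.46% and 15.7% were called, male CA1 clones were higher than IVF by at least 4.13-fold (2.05, SE 0.32, adjusted p = 2.25e-05), than Sertoli clones by at least 4.13-fold (adjusted p = 0.000805) and than male Purkinje clones by 3.3-fold (adjusted p = 0.00199). With all of a gene's passing probes averaged, Rasgrf1 was called in male CA1 clones (1.26, adjusted p = 0.0152) and not in male Purkinje clones (0.85, adjusted p = 0.104). Over the 33 embryos the values of both probes correlated at 0.42, and both were above the floor in 6. The remaining Rasgrf1 probes failed the filter, with 1 embryo (male Purkinje clone 1, -2.52) above the floor on the third and none on the fourth. By the brighter probe all 3 female IVF embryos were above the floor, at -1.49, -2.31 and -2.12, and all male IVF embryos on it. That difference of at least 2.75-fold did not pass (adjusted p = 0.267), in a comparison in which 0 of 9 members and 0.436% of all genes were called (2 members and 12.5% of all genes at an unadjusted p under 0.05). It passed when the IVF groups were fitted alone (adjusted p = 0.00625). In that fit the gene's own spread comes from the 3 female embryos, which shared a slide, since every male value is on the floor. Female clones were not called (cumulus, all on the floor, adjusted p = 0.206). Female CA1 clone 1 had both probes up (-0.75 and -1.04) and the other 3 had both on the floor.

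**Figure D2:**
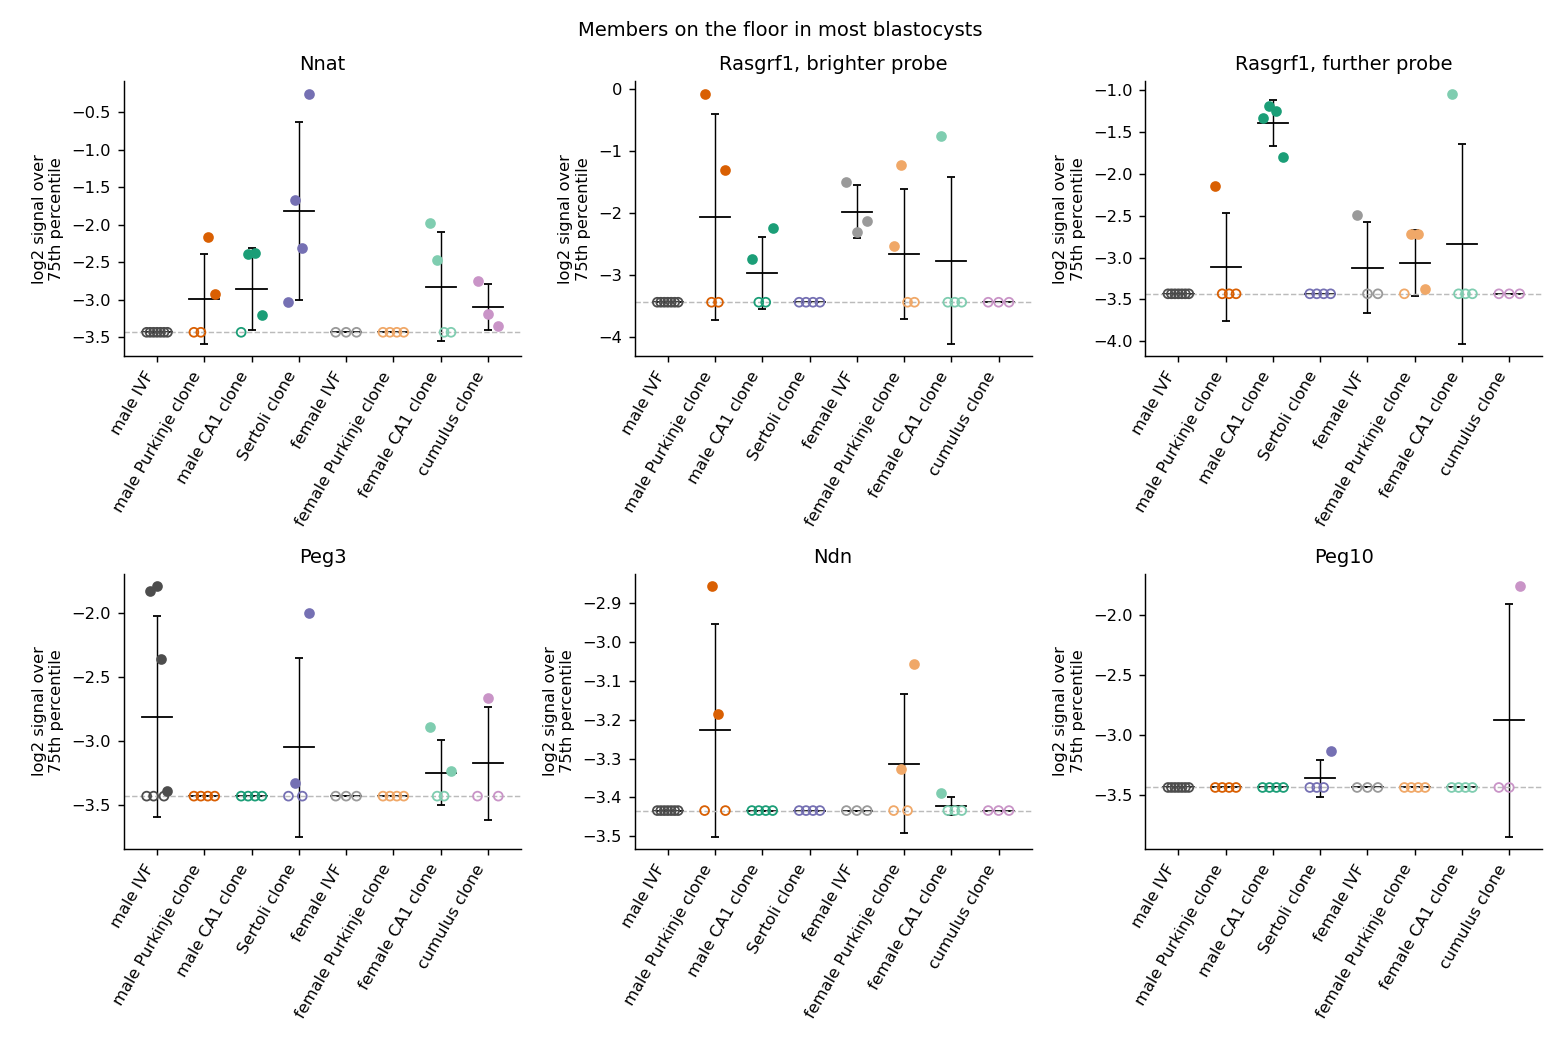
Log2 signal over the 75th percentile of the array for Nnat, both usable Rasgrf1 probes, Peg3, Ndn and Peg10 in each blastocyst (points; open, on the floor; dashed line, floor at -3.43; black bars, mean and SD). All 4 Sertoli clones are above the floor for Nnat, and all 4 male CA1 clones for the further Rasgrf1 probe, with every male IVF embryo on the floor for both.

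Snrpn encodes SmN, a core protein of the spliceosome, and Ndn encodes necdin, a growth-restraining protein of neurons. Both lie in the Prader-Willi domain of chromosome 7. Snrpn was above the floor in every embryo. In male IVF embryos it ran from 0.02 over a median of 0.35 to 1.25, and the male Purkinje (0.83, 0.76, 0.10 and 0.69) and Sertoli clones (0.51, 0.02, 0.70 and 0.38) lay in that range apart from Sertoli clone 2, just under it. Their intervals against IVF were -0.43 to 0.66 and -0.62 to 0.47. Of the male CA1 clones (-0.10, 0.77, -0.51 and -0.70) 3 lay below it, and the difference was -0.61 (adjusted p = 0.0817). Without male CA1 clone 2 that group passed against IVF (-0.91, adjusted p = 0.0114) and against male Purkinje clones (1.03 higher in Purkinje, adjusted p = 0.017, beside 0.73 and 0.0901 with it).

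Female IVF embryos had Snrpn at 1.15, 1.23 and 0.92. Female Purkinje clones read -0.20, 0.27, 0.49 and 0.45, cumulus clones -0.11, 0.54 and 0.86, and CA1 clones -0.43, 0.92, 0.54 and 0.18. The first and second groups did not overlap with IVF, an order that 8.7% and 15.8% of all genes had, and 3 of 4 CA1 clones were below it. No difference passed: -0.84 (adjusted p = 0.0656), -0.67 (adjusted p = 0.269) and -0.80 (adjusted p = 0.102). With arrays scaled to their median the female Purkinje difference passed (-1.45, adjusted p = 0.00836). The 3 female IVF arrays shared a slide with male IVF embryo 5, whose value of 1.25 was the highest of all 33. The part of the slide in the clone differences was not tested. Within it the sexes differed by 0.15, against -0.62 over all IVF embryos (adjusted p = 0.381).

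The further Snrpn probe followed the first closely, with r = 0.975 between deviations from group means over 33 embryos. Snurf, read from the same transcript as Snrpn, was the gene most like it on the array (r = 0.902 over 33 embryos), and also had its highest group mean in female IVF embryos (-0.37 ± 0.108, SD, n = 3). Ndn had its probe well above background in 28 embryos but above the floor in 5. These were male Purkinje clones 2 and 3 (-2.86 and -3.18), female Purkinje clones 2 and 4 (-3.33 and -3.06) and female CA1 clone 1 (-3.39). Of the 8 Purkinje clones 4 were thus above the floor, against 1 of the other 25 embryos, and no comparison passed (male Purkinje against IVF at least 1.15-fold, adjusted p = 0.127). The highest value was 13.8% of the 75th percentile, little above the floor, and the share of all genes with such a split was not worked out. With normexp background correction Ndn was called higher in Purkinje clones of both sexes against IVF (1.42, adjusted p = 0.00672, and 1.86, adjusted p = 0.00671). The signal of the Purkinje arrays was low, as above. In the order given, the 4 Purkinje clones above the floor had 75th percentiles of 602.9, 367.7, 353.8 and 430. The part of the low signal was not tested. Deviations of Snrpn and Ndn from group means did not go together (Pearson r = 0.0132, permutation p = 0.937, Spearman rho = -0.214, permutation p = 0.288, adjusted over 2 pairs 0.937 and 0.288, r = 0.0148 without the 2 embryos whose Snrpn level was farthest from the median, and 0.0526 without the 2 farthest by deviation).

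Mest encodes an enzyme of the alpha/beta hydrolase fold and is widely read in mesoderm. It was detected in all embryos and was the most variable of the steadily detected members. In male IVF embryos it ran from 0.85 over a median of 1.33 to 4.56. The Purkinje clones (3.76, 1.20, 2.52 and 1.62), CA1 clones (3.02, 1.61, 2.46 and 1.93) and Sertoli clones (2.75, 1.60, 1.43 and 3.63) all lay inside that range. Group means were 2.23 ± 1.52 in male IVF (SD, n = 7), 2.28 ± 1.13, 2.26 ± 0.616 and 2.35 ± 1.03 in the clones (SD, n = 4 each), and the differences from IVF were at most 0.12, with 95% intervals from -1.25 to 1.40. The female IVF embryos read 3.55, 2.65 and 3.63. Female Purkinje clones (2.39, 2.44, 3.56 and 1.70), CA1 clones (2.67, 0.85, 1.55 and 2.45) and cumulus clones (1.96, 2.52 and 2.93) differed from them by -0.76, -1.40 and -0.81, none of which passed (adjusted p = 0.539, 0.241 and 0.643). In order, the means fell from female IVF (3.28) over female Purkinje (2.52), cumulus (2.47), Sertoli, male Purkinje, male CA1 and male IVF to female CA1 clones (1.88), and no neighbours in that order differed beyond their spread.

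The pooled SD of Mest within groups was 1.04, at the 98.9th percentile of the 9509 genes that were never on the floor (median SD 0.425). Snrpn (0.429) was at the 50.8th and Impact (0.56) at the 76.6th percentile. Male IVF embryos 4 and 5, on different slides, held the highest Mest values (4.07 and 4.56), and the other 5 lay between 0.85 and 2.46. Copg2, which overlaps Mest tail to tail, was higher in male Purkinje (0.74, adjusted p = 0.00316), male CA1 (0.52, adjusted p = 0.0312) and female Purkinje clones (0.64, adjusted p = 0.04) than in IVF embryos, in which comparisons Mest was not called.

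**Figure D3:**
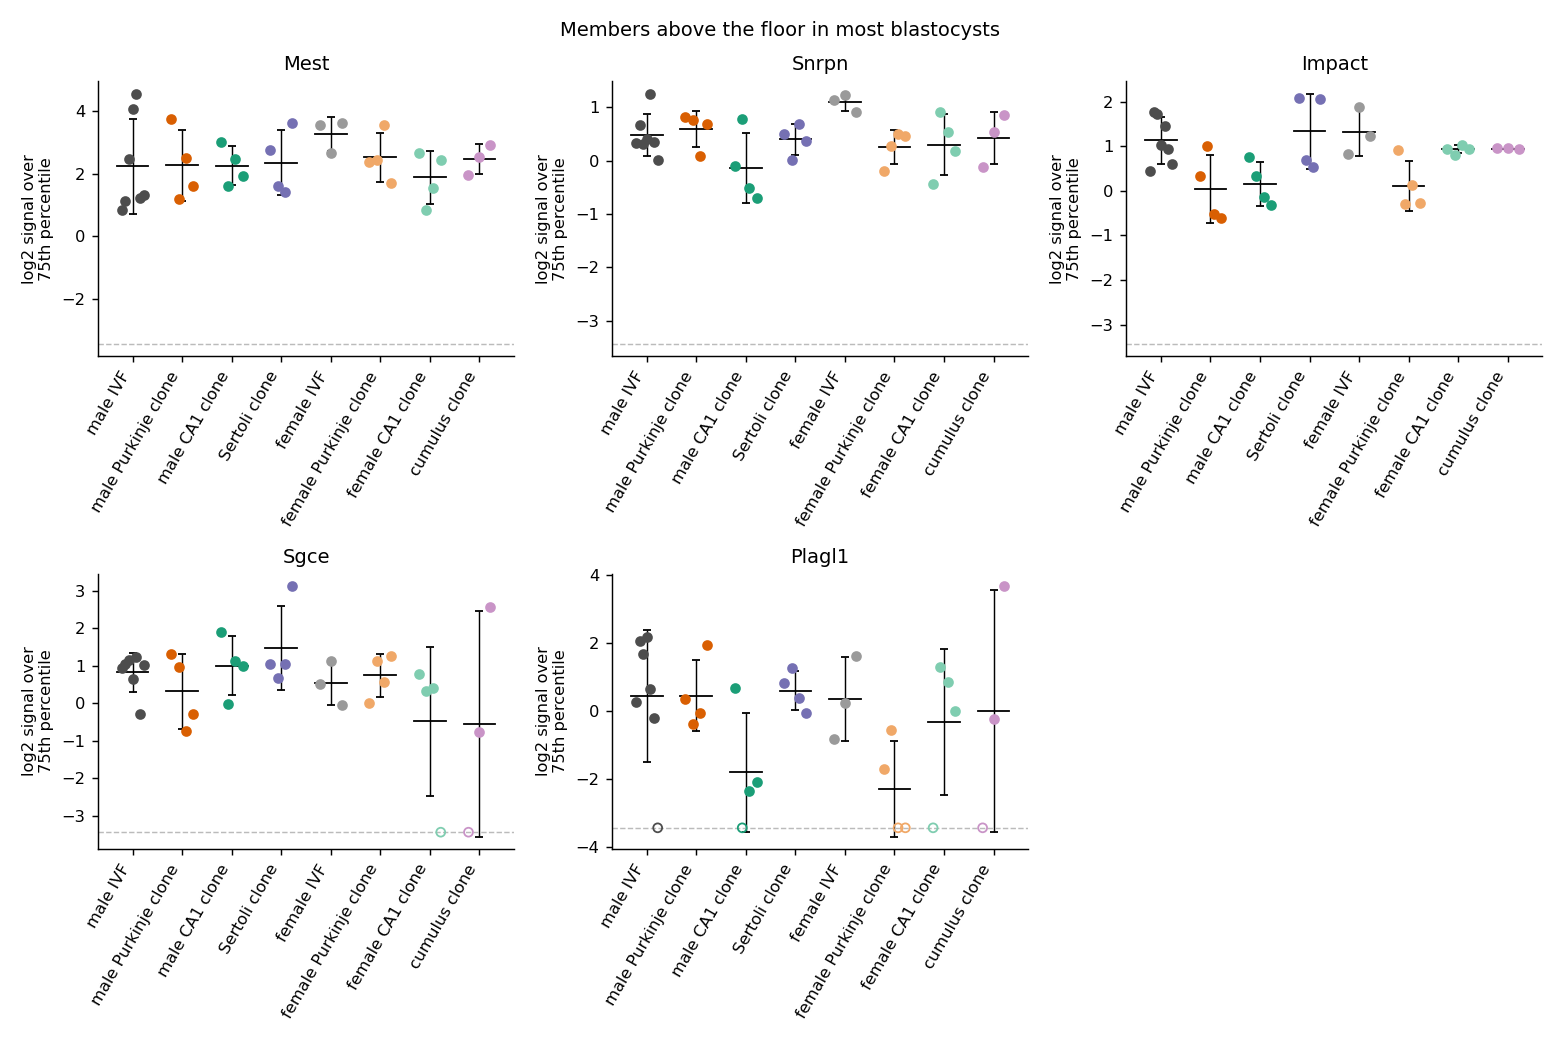
Log2 signal over the 75th percentile of the array for the 5 members above the floor in most blastocysts (points, single blastocysts; open, on the floor; dashed line, floor at -3.43; black bars, mean and SD). Mest spreads from 0.85 to 4.56 within male IVF embryos, whereas the 3 cumulus clones lie at 0.93 to 0.96 for Impact.

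Sgce encodes epsilon-sarcoglycan, a membrane protein of the dystrophin complex, and Peg10 is a gene derived from a retrotransposon that the placenta needs. They are neighbours on chromosome 6 and share a control region. Sgce spread widely within groups (pooled SD 1.29, values on the floor included). Male IVF embryos ran from -0.27 over a median of 1.03 to 1.23. Sertoli clones read 1.04, 0.67, 1.03 and 3.12, cumulus clones -3.43, -0.77 and 2.56, and female CA1 clones 0.78, 0.32, 0.40 and -3.43. Male Purkinje clones read 1.32, 0.98, -0.74 and -0.30 and male CA1 clones 1.90, -0.02, 1.14 and 0.99. Female IVF embryos stood at 0.53, 1.12 and -0.05 and female Purkinje clones at 0.02, 1.13, 0.57 and 1.26. No clone group passed against IVF (differences of -1.08 to 0.64, adjusted p from 0.545 to 0.941). Without cumulus clone 3 Sgce was higher in female Purkinje than in cumulus clones (2.85, adjusted p = 0.0313, beside 1.30 and 0.372 with it).

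The further Sgce probe put the same embryos at both ends, with r = 0.885 between deviations from group means. It read 1.23 in Sertoli clone 4 and 1.49 in cumulus clone 3, and was on the floor in female CA1 clone 4 and cumulus clone 1. Peg10 was above the floor in only 2 of the 33 embryos, and these were the same Sertoli clone 4 (-3.13) and cumulus clone 3 (-1.76) that had the highest Sgce values. Deviations of both genes correlated at r = 0.635 (permutation p within groups 0.0837, Spearman rho = 0.525, permutation p = 0.0837, adjusted over 2 pairs 0.167). Peg10 varied only within the Sertoli and the cumulus clones. In both groups the embryo above the floor had the highest Sgce value, so no reordering within groups could match better. A p clearly below 0.0837 was therefore out of reach, and this test cannot decide whether the genes go together. The relation rests on Sertoli clone 4 and cumulus clone 3: without these 2 embryos Peg10 does not vary and r is undefined. Without the 2 embryos farthest by deviation, cumulus clones 1 and 3, r was 0.392, a value that rests on Sertoli clone 4 alone. Tested without the filter on dim probes (27645 genes), Peg10 did not pass in any of the 13 comparisons, and its largest difference was 0.56 in cumulus clones against female IVF (adjusted p = 0.221) or against female CA1 clones (adjusted p = 0.106).

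**Figure D4:**
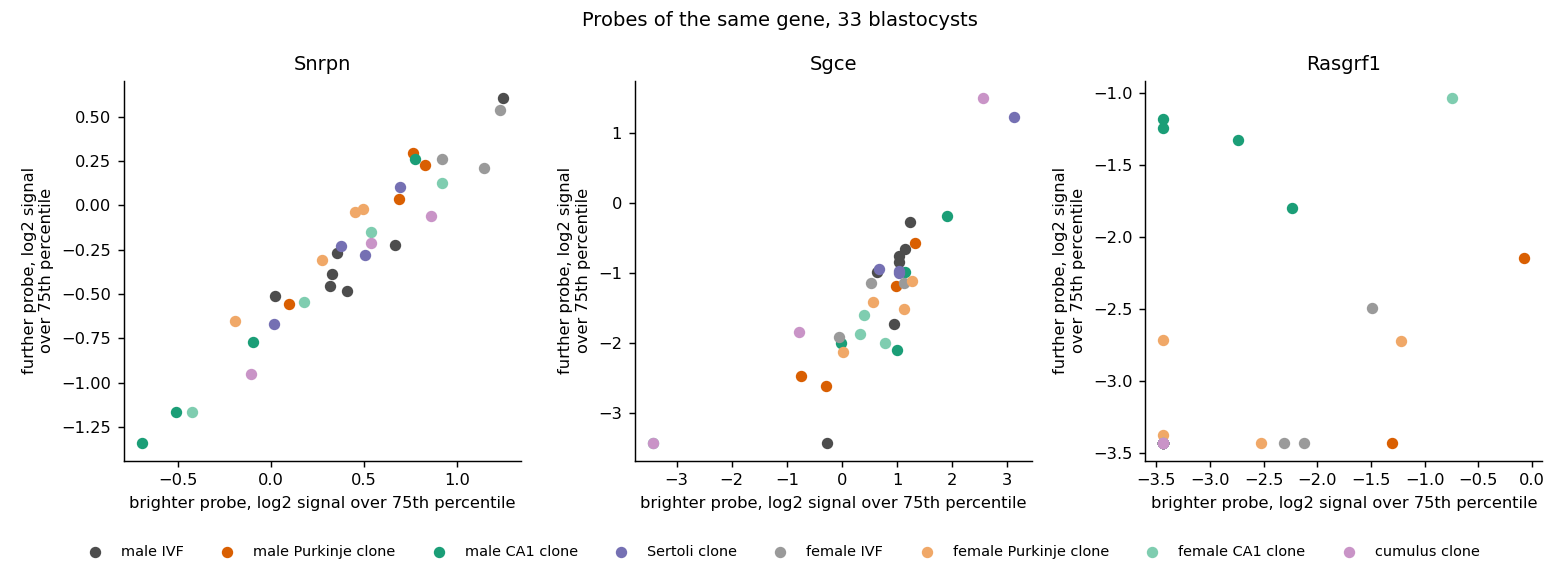
Log2 signal over the 75th percentile of the array by the brighter (x axis) and a further probe (y axis) of Snrpn, Sgce and Rasgrf1 in 33 blastocysts (points, coloured by group; several points overlap at the floor). Both Snrpn probes and both Sgce probes order the embryos alike, while the 4 male CA1 clones are high by the further Rasgrf1 probe alone or by both.

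Plagl1, also called Zac1, and Peg3 encode zinc finger transcription factors, and Plagl1 is known to regulate other imprinted genes. Plagl1 had the widest spread of the members, with a pooled SD of 1.83 within groups. Male IVF embryos ran from the floor over a median of 0.64 to 2.16, with embryo 7 alone on the floor. Male CA1 clones read 0.66, -3.43, -2.36 and -2.10, and their difference of -2.26 (SE 1.09) did not pass (adjusted p = 0.12). Without IVF embryo 7 it passed (-2.90, adjusted p = 0.0323). Male Purkinje clones read 0.35, -0.40, -0.08 and 1.93 and Sertoli clones 0.82, 1.26, 0.37 and -0.07, inside the IVF range.

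Female IVF embryos read -0.82, 0.22 and 1.62 for Plagl1. Female Purkinje clones read -1.71, -0.57, -3.43 and -3.43, and the difference of -2.63 (SE 1.33) did not pass (adjusted p = 0.171). Female CA1 clones (-3.43, 1.30, 0.84 and -0.01) and cumulus clones (-3.43, -0.23 and 3.66) each held an embryo on the floor, and the cumulus clones also held the highest value of all 33. Cumulus clone 1 was on the floor for both Plagl1 and Sgce, and cumulus clone 3 was the highest of all embryos for Plagl1 and second to Sertoli clone 4 for Sgce. Without cumulus clone 1 the female Purkinje clones were called lower than the cumulus clones (-4.00, adjusted p = 0.0483, beside -2.29 and 0.249 with it). No member was called in female Purkinje or female CA1 clones against cumulus clones, where 18.7% and 19.3% of all genes were, and none had an unadjusted p under 0.05 in either, where 31.3% and 31.7% of all genes did.

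The further Plagl1 probe was on the floor in all 33 embryos. Peg3 lay near the floor by its brightest probe, and its other probes were above it in 1 embryo (male Purkinje clone 2, -2.34) and in none. Male IVF embryos 2, 4 and 5 read -1.82, -1.79 and -2.36, embryo 7 was just above the floor (-3.39), and the other 3 were on it. All male Purkinje, male CA1, female Purkinje and female IVF embryos were on the floor. The difference from male IVF was -0.62 in both male neuronal groups and did not pass (adjusted p = 0.116 and 0.112). Sertoli clones 2 and 4 (-3.33 and -2.0), female CA1 clones 1 and 4 (-2.89 and -3.23) and cumulus clone 2 (-2.66) were above it. On the slide that held both sexes, male IVF embryo 5 was the only male and lay 1.07 above the 3 female embryos, all on the floor.

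The effects of Purkinje and of CA1 nuclei against IVF embryos did not differ between males and females for any of the 9 members (smallest adjusted p = 0.468), where 0.0569% and 1.07% of all genes were called. For Impact the Purkinje effects differed by 0.12 (95% interval -0.99 to 1.22) and the CA1 effects by -0.59 (-1.70 to 0.51). Before adjustment the limma p of the Purkinje difference was under 0.05 for Snrpn and Rasgrf1 (adjusted p = 0.594 and 0.552).

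The members were also counted embryo by embryo against the IVF range. A male Purkinje clone had 1 to 4 of the 9 members outside the range of the male IVF embryos, a male CA1 clone 2 to 4 and a Sertoli clone 1 to 3. Their shares over a group were 33.3%, 33.3% and 22.2%, beside 38.4%, 38.7% and 35.3% of all genes. Female Purkinje clones had 4 to 7 outside, female CA1 clones 3 to 6 and cumulus clones 5 to 6, or 58.3%, 50% and 63%, beside 57.2%, 54.1% and 50.6%. The female range rests on 3 embryos and the male on 7, so the sexes are not to be set against each other. Snrpn was below the female range in 10 of 11 female clones and Rasgrf1, by its brighter probe, in 9. By the further Rasgrf1 probe 2 of the 3 female IVF embryos were on the floor, so no clone could lie below that range. In males Nnat was above the range in 9 of 12 clones and Impact below it in 6. All clones of a sex were set against the same IVF embryos, so the clones in these counts are not independent. The share of all genes outside the range in as many clones was not worked out. Single female clones had 17.6% to 29.6% of all genes below the range. Single male clones had 18.9% to 29% above it and 11.5% to 16.9% below it.

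**Figure D5:**
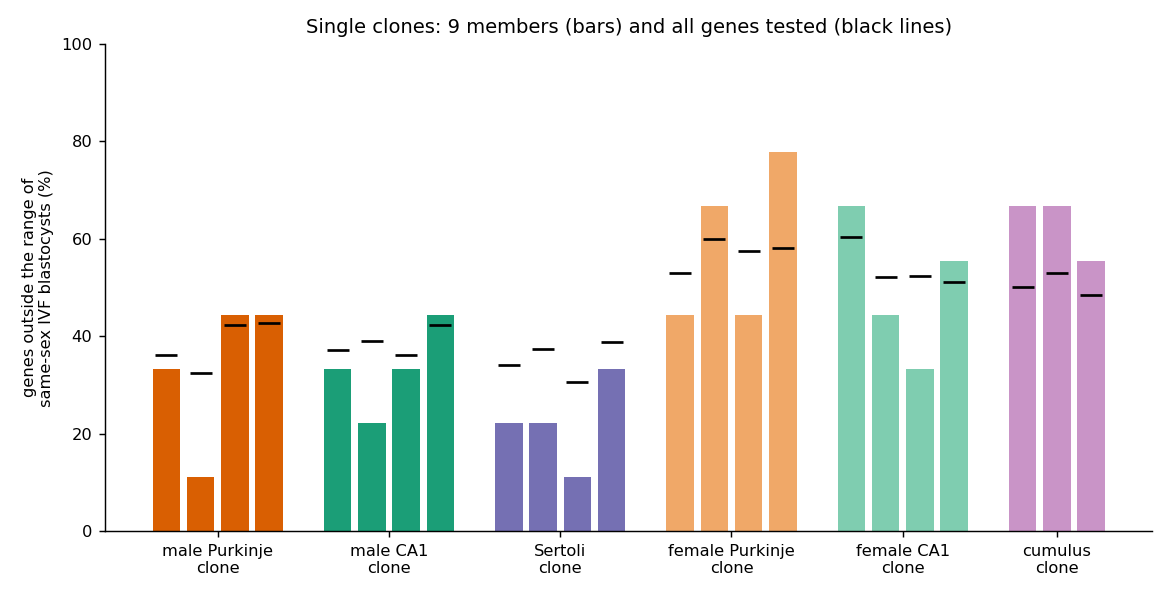
Share of the 9 tested members outside the range of the same-sex IVF blastocysts in each clone (bars, 1 per clone in order of replicate number) and of all 15808 genes (black lines), in percent. The bars lie below the lines in all 4 Sertoli clones (11.1% to 33.3% against 30.6% to 38.9%) and above them in all 3 cumulus clones (55.6% to 66.7% against 48.5% to 53.1%).

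Between the members, deviations from group means went weakly together. Over 36 pairs the correlation across the 33 embryos, which share their arrays, ran from -0.487 (Ndn and Rasgrf1) to 0.482 (Peg3 and Mest). The gene most like Mest over the 33 embryos was Clspn (r = 0.676), that most like Impact was Pex5 (r = 0.756), that most like Sgce was Gstm3 (r = 0.675) and that most like Plagl1 was Tmem237 (r = 0.616). For Nnat it was Olfr74 (r = 0.791), for Rasgrf1 Defb7 (r = 0.758), for Peg3 Armcx4 (r = 0.696) and for Ndn G6pc (r = 0.916), with members on the floor in 19, 23, 24 and 28 embryos.

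Other imprinted genes were described from lists, whose counts are to be read against the share of all genes called. That share was 28.6% for Purkinje, 30.9% for CA1 and 25.7% for Sertoli nuclei in males, and 19.7% for Purkinje, 13.3% for CA1 and 5.29% for cumulus nuclei in females. Of 18 further paternally expressed genes 10 were tested. In male Purkinje clones 2 were higher and 1 lower than IVF, in male CA1 clones 1 was higher, in Sertoli clones 1 was higher and 1 lower, in both female neuronal groups 1 was higher, and in cumulus clones none was called. Mcts2, a retrogene inside H13, was the gene higher in all 5 non-cumulus groups, by 1.66 in male Purkinje (adjusted p = 4.76e-05), 0.91 in male CA1 (adjusted p = 0.00999), 1.20 in Sertoli (adjusted p = 0.00147), 1.34 in female Purkinje (adjusted p = 0.00468) and 1.26 in female CA1 clones (adjusted p = 0.0105). Its difference was 0.01 in cumulus clones (adjusted p = 1). The 5 groups were those on the newer scanner, and the cumulus clones were on the older one with the IVF embryos. Array set and donor cell can therefore not be told apart for Mcts2. Whether its probe also reads its parent gene Mcts1 was not tested. Igf2, the fetal growth factor, was lower in male Purkinje (-1.0, adjusted p = 0.0338) and Sertoli clones (-1.54, adjusted p = 0.0021). Mkrn3, a neighbour of Ndn, was higher in male Purkinje clones (1.85, adjusted p = 0.00765).

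Of 25 maternally expressed genes 20 were tested. They were called higher and lower in 2 and 3 cases in male Purkinje, 5 and 3 in male CA1, 2 and 1 in Sertoli, 2 and 3 in female Purkinje, 1 and 1 in female CA1 and 0 and 0 in cumulus clones against IVF, beside the shares of all genes just given. Meg3, a long noncoding RNA, was lower in male Purkinje (-2.41, adjusted p = 0.00217), male CA1 (-1.87, adjusted p = 0.0127), female Purkinje (-4.09, adjusted p = 0.000191) and female CA1 clones (-2.56, adjusted p = 0.0138). Slc22a18, a transporter gene, was higher in male CA1 (3.85, adjusted p = 1.22e-05), Sertoli (1.80, adjusted p = 0.0235), female Purkinje (2.24, adjusted p = 0.0261) and female CA1 clones (2.63, adjusted p = 0.0139).

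The list of 18 factors known to keep or erase imprints was tested in full. Against IVF, 7 were lower and 2 higher in male Purkinje, 9 and 1 in male CA1, 4 and 2 in Sertoli, 8 and 2 in female Purkinje, 3 and 0 in female CA1 and 2 and 1 in cumulus clones, where 28.6%, 30.9%, 25.7%, 19.7%, 13.3% and 5.29% of all genes were called. The median differences of the list were -0.79, -0.70, -0.48, -1.03, -0.26 and -0.50, beside 0.07, 0.01, 0.00, 0.08, 0.07 and -0.02 over all genes. Dnmt3b, a DNA methyltransferase, was lower in all 6 groups, with differences from -0.83 (female CA1, adjusted p = 0.0229) to -2.12 (female Purkinje, adjusted p = 1.63e-06). Zfp57 was near the floor and lower in female Purkinje (-1.13, adjusted p = 0.0217) and cumulus clones (-1.26, adjusted p = 0.0435).

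Markers of the blastocyst's own cell types were largely above the floor, with exceptions. Hand1 of the trophectoderm was on the floor in all male IVF embryos, Gata4 in all male Purkinje, male CA1, Sertoli and female Purkinje clones, and Sox7 in all CA1 clones of both sexes. Of 8 primitive endoderm markers, all tested, 4 were called lower in each male clone group, 3 in female Purkinje and CA1 and 1 in cumulus clones, and 1 was called higher in male Purkinje and 1 in Sertoli clones, beside the same shares of all genes. They had summed log2 levels of 7.07 to 8.22 across all embryos. Purkinje cell markers (4 of 7 tested) had summed levels from 2.42 to 2.82 in male Purkinje clones, against 0.06 to 1.79 in male IVF embryos. Male CA1 clones had 1.73 to 2.22 and Sertoli clones 0.49 to 2.35. In females the levels were 1.88 to 2.44 in Purkinje, 1.73 to 2.55 in CA1 and -0.11 to 2.545 in cumulus clones. Female IVF embryos had -0.39 to 1.40. The part of these markers in the results was not tested. Pan-neuronal markers (6 of 9 tested) summed to 2.41 to 3.73 in male IVF and 2.79 to 3.56 in female IVF embryos and to 0.20 to 2.48 in clones, and none was called higher in a neuronal clone group against IVF. The Sertoli cell markers (4 of 7 tested) summed to -0.45 to 0.96 in Sertoli clones, where Nnat was high, and -1.30 to 2.64 in male IVF embryos, with Gata1 and Inha on the floor in all Sertoli clones. Gata1 was also on the floor in all male CA1 clones, and Inha in all male Purkinje clones and all female embryos, IVF included. In whole blastocysts, fewer cells that read a gene and less RNA per cell cannot be told apart.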

How the data were processed

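One array was read for each of 33 blastocysts, whose RNA went through a pair of amplification rounds, per the labels' protocols. The deposited scanner files hold spot intensity on a linear scale, background-corrected by Agilent Feature Extraction (10.5.1 in the submitters' processing notes; per the file headers 9.5.3.1 for the 13 IVF and cumulus arrays and 10.5.1.1 for the other 20, so that the version differs between most clones and their controls). The authors' value table holds log2 values that the comparison with the scanner files showed to be floored at 1, scaled to the 75th percentile and centred per probe within each sex, and it served as an alternative. Here the processed signal was divided by the 75th percentile of the array, set to at least 9.254% of it and logged. Kept were probes that more than 50% of the arrays of some group read as well above background and that 3 or more arrays had above the floor (22812 of 41174), and the brightest stood for its gene. Group means over all 33 arrays were fitted with limma 3.58.1 (lmFit, eBayes) in R 4.3.3, with Benjamini-Hochberg adjustment over 15808 genes and a threshold of 0.05. A difference from a group wholly on the floor is a lower bound.

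The number of arrays limits the precision. On simulated data the fit recovered 50% of genes changed by 1 and 93% changed by 2 (log2) for male Purkinje clones against male IVF. For cumulus clones against female IVF it recovered 29% and 83%. Each size of change was given to 100 of 15808 genes, drawn from those with a mean above 0, and no share was worked out for genes near the floor. In the data 28.6% and 5.29% of all genes were called in these comparisons, more than were changed in the simulation, and the adjustment is then less strict. The shares are therefore not the power of the comparisons made here. Nor do they carry over to Nnat, Rasgrf1, Peg3 and Ndn, which were on the floor in most embryos. Pairs of genes of a locus were tested by 100000 permutations within groups, two-sided (leaving out embryos by deviation was chosen after seeing the data). Alternatives covered background correction (normexp on median signals, as mean signals were not used here), scaling, floor, filter, probe choice, the groups fitted, slide and replicate blocks, and leaving out arrays. The members and gene lists were chosen with earlier results of these data known. By rule the text names all members, up to 3 called genes of largest difference from each other list and comparison, the gene most correlated with each member, and the label checks. Snurf's group values and those of Blcap, Copg2 and Zfp57 were added after their values were seen.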

Additional observations from a re-analysis of the deposited data

Results flagged for a closer look

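In 31 sets, each of a member's values in a group of 4 or 7 embryos, 4 had an embryo far from the others, and chance flags about 1 in 20. Plagl1 was on the floor (-3.43) in male IVF embryo 7, where the next lowest embryo read -0.21. Sgce read 3.12 in Sertoli clone 4 (next 1.04), -3.43 in female CA1 clone 4 (next 0.32) and -0.27 in male IVF embryo 6 (next 0.64). The further Sgce probe was also highest of its group in Sertoli clone 4 (1.23) and lowest in female CA1 clone 4 (-3.43) and male IVF embryo 6 (-3.43).

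Impact differed between clones of different donors by a test of the difference itself: male Purkinje against Sertoli clones by -1.29 (limma adjusted p = 0.0496) and male CA1 against Sertoli clones by -1.18 (adjusted p = 0.044). The first call held in 3 of 13 other ways of processing (adjusted p from 0.0434 to 0.595) and 4 of 8 refits without 1 embryo. The second held in 2 of 12 (adjusted p from 0.0469 to 0.164) and 3 of 8.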

How the results depend on the processing

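Of 2448 refits of single members, 2342 kept direction or stayed uncalled, 69 lost a call, 37 gained one, 0 turned a called direction, and 213 changed sign while passing in neither. The number of members called changed as follows. With normexp, male Purkinje against IVF gave 4, female Purkinje against IVF 2, male Purkinje against CA1 1, male Purkinje against Sertoli 2, male CA1 against Sertoli 0 and female Purkinje against cumulus 2. Scaling to the array median gave 1 for male Purkinje against IVF, 2 for female Purkinje against IVF, 1 for female Purkinje against CA1, 0 for both groups against Sertoli and 1 for female Purkinje against cumulus. Quantile normalization and a floor 2 times as high each gave 1 for male Purkinje against IVF and 0 for both against Sertoli. A floor at a signal of 1 and the authors' table each gave 3 for male Purkinje, 3 for male CA1, 2 for female Purkinje and 1 for cumulus against IVF, and 2 for female Purkinje against cumulus. Without the filter on dim probes male Purkinje gave 1 and male CA1 and female Purkinje 0 against IVF, and both 0 against Sertoli. With every probe of its own, male CA1 against IVF gave 2, male Purkinje against CA1 1 and male Purkinje against Sertoli 0. The mean of probes gave 1 for male Purkinje and 2 for male CA1 against IVF and 0 for both against Sertoli. Fits of the 2 groups alone gave 0 for male Purkinje and 2 for male CA1 against IVF, 0 for both against Sertoli and 1 for male against female IVF. Without the dim Purkinje arrays, male Purkinje gave 0 against IVF and against Sertoli, and female Purkinje kept 1 array, which allows no test. Slide as a random block (correlation 0.0309) gave 1 for male Purkinje and 0 for female Purkinje against IVF and 0 for both against Sertoli. Within the slide of both sexes the IVF groups gave 1 (Peg3), a value that is no test, since the male arm is 1 embryo and its spread is assumed from the 3 female ones, all on the floor. The cause of these changes was not tested.

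Leaving out 1 embryo gave 0 to 2 for male Purkinje and male CA1 against IVF, and 0 to 1 for female Purkinje against IVF, male Purkinje against CA1, both against Sertoli and female Purkinje against cumulus. Replicate numbers are only names here: correlations of same-numbered embryos ran from -0.206 to 0.306, and in no comparison were all over 0.1. The replicate block, which drops unpaired embryos, gave 0 called members in each comparison with a call, Nnat in Sertoli clones included (1.62, adjusted p = 0.184).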
